A study of Homo sapiens with 2 samples.

Results

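The EBF transcription factor family was described in REH cells with and without induced PAX5. Its members are the 4 human genes EBF1, EBF2, EBF3 and EBF4, taken by gene symbol and not by their values, and all 4 were found among the 25702 gene features counted. REH, labelled REH-R, is an established human cell line of B-cell acute lymphoblastic leukaemia. In the PAX5 culture, tetracycline-regulated PAX5-IRES-GFP was expressed, in which an IRES (internal ribosome entry site) lets 1 transcript encode both PAX5 and GFP, the green fluorescent protein. In the control culture, tetracycline-regulated IRES-GFP was expressed without PAX5. Doxycycline at 1 µg/mL was given to both for 3 days before GFP-positive cells were sorted, so the drug, the sort and GFP were shared by the groups. Each group gave 1 library of total RNA, called PAX5 cells and control cells below, so no difference between them has a replicate check.

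EBF proteins, for early B-cell factor, bind DNA as dimers through a zinc-containing domain shared by the whole family, with an immunoglobulin-like fold and a helix-loop-helix region for pairing. EBF1 is the member of B-cell precursors. In mouse it acts with the E protein E2A (human gene TCF3) and FOXO1 to start the B-lineage programme, it activates Pax5, and Pax5 in turn binds and activates a promoter of Ebf1. EBF2 is known from mouse brown fat and bone-forming cells, EBF3 from the developing nervous system, and EBF4 is the least studied of the family.

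The promoters of 3 of the genes are shown because the members differed both in level and in response. Each is the RefSeq sequence of 250 bases before to 50 after 1 annotated start, on GRCh38.p14. The EBF1 window lies on the minus strand at chr5:159097907-159098206, that of EBF3 on the minus strand at chr10:129964225-129964524, and that of EBF4 on the plus strand at chr20:2692530-2692829. Capitals mark matches to CCCNNGGG, the centre of the palindrome that EBF dimers bind, to the whole palindrome, which has T before and A after that centre, or to the E-box CAGCTG.
EBF1: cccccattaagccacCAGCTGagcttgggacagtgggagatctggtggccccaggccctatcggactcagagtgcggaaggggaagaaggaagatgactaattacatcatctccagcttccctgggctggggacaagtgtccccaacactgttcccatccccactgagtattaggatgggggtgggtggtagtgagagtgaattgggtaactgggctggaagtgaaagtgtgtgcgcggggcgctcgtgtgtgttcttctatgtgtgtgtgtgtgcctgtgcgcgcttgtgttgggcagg
EBF3: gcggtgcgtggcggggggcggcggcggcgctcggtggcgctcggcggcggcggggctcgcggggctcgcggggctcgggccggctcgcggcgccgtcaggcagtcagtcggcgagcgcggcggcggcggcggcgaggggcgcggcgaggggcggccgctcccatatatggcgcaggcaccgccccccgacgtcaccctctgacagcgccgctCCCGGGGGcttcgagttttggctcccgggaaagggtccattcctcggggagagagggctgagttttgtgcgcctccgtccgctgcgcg
EBF4: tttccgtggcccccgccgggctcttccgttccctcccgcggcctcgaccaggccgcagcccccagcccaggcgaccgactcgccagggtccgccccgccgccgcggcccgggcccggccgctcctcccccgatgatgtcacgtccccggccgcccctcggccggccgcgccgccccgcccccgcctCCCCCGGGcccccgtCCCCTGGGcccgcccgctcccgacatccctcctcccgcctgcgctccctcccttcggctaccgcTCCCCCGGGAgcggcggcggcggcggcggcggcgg
The whole palindrome occurred in the EBF4 window alone of these 3, from base 16 to base 25 after the start, and in 1.21% of 35116 promoters of this length (425 promoters, of 27305 genes in all). Its centre CCCNNGGG occurred once in the EBF3 window, from base -38 to -31, 3 times in the EBF4 window, where 1 match lies inside the whole palindrome, and in 19.1% of all promoters. Both of these motifs read the same on either strand, as does CAGCTG, which occurred once in the EBF1 window and in 17.9% of all promoters. The other E-box searched, CAGGTG, was sought on both strands and occurred in none of the 3 windows and in 20.6% of all promoters. The windows of EBF3 and EBF4 were rich in G and C, at 78.7% and 83.7%, and held 52 and 48 CG dinucleotides, against 57% and 8 in the EBF1 window and medians of 58.3% and 14 over all genes. A match is a description of letters and not a binding site.

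Depth was 11944765 counts in PAX5 cells and 10997864 in control cells, and 13532 features had at least 10 counts summed over both. Levels are given as counts, as CPM (counts per 1000000 after scaling by TMM, the trimmed mean of M values) and, between genes, as RPKM (CPM per 1000 bases of the deposited gene length). Ratios put PAX5 cells over control cells and carry an exact 95% interval for counting error alone. A gene was called when the bound nearest to no change lay at or beyond 2-fold and the summed count was at least 10. PAX5 (Entrez 5079), the induced gene, had 8319 counts in PAX5 cells and 2660 in control cells, a ratio of 2.91-fold (2.78 to 3.04). Both libraries came from cells with B-precursor transcripts: the lymphoid recombinase gene RAG1 had 2733 CPM in PAX5 cells and 2906 in control cells. CD79A, which encodes a signalling chain of the B-cell receptor, had 442 and 448 CPM. CD24, another marker of the list of 10, had 1026 CPM in PAX5 cells and 1017 in control cells. Some others of the list were low or unequal. CD34 had 1 count in PAX5 cells and 0 in control cells, and VPREB1 had 17 and 7 counts. MME had 1456 CPM in PAX5 cells and 858 in control cells. Of the 9 markers with at least 10 counts, intervals lay above equal levels for 3, below for 3 and spanned them for 3. Of 6 T-cell markers, 5 were at 0 in both groups, and CD3E was at 0 in PAX5 cells and at 1 count in control cells.

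EBF1 was by far the most abundant member and, without the centring on gene length described below, did not differ between the libraries beyond counting error. EBF1 (Entrez 1879, chromosome 5) had 7945 counts or 668 CPM (654 to 683) in PAX5 cells, against 7354 counts or 666 CPM (650 to 681) in control cells. Its ratio was 1.00-fold with an interval of 0.973 to 1.04, or 0.01 on the log2 scale (-0.04 to 0.05). It took 0.0665% of all counts in PAX5 cells and 0.0669% in control cells. PAX5 transcript was 2.91-fold higher in the same cells. In bulk RNA, fewer cells expressing a gene and less RNA per cell cannot be told apart.

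EBF3 was the only member called. EBF3 (Entrez 253738, chromosome 10) had 21 counts or 1.77 CPM (1.09 to 2.70) in PAX5 cells, against 1 count or 0.0905 CPM (0.00229 to 0.504) in control cells. The CPM intervals of PAX5 and control cells do not overlap. The ratio was 19.5-fold with an interval of 3.14 to 807, a log2 ratio of 4.29 (1.65 to 9.66), so its size is poorly known while the bound passes the rule. The call rests on a single control count and on 22 counts in all. It was lost with the bound set at 4-fold or with a minimum of 50 summed counts, both chosen after the values were seen. EBF3 stayed far below EBF1 where it was higher: in PAX5 cells the RPKM of EBF1 was 313-fold that of EBF3 (205 to 506). The strand setting of the counting is not given in the sources used here, so reads of EBF3 and of its antisense gene EBF3-AS1 cannot be told apart. MIR4297, a microRNA gene that overlaps EBF3, had 0 counts in both libraries.

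**Figure D1:**
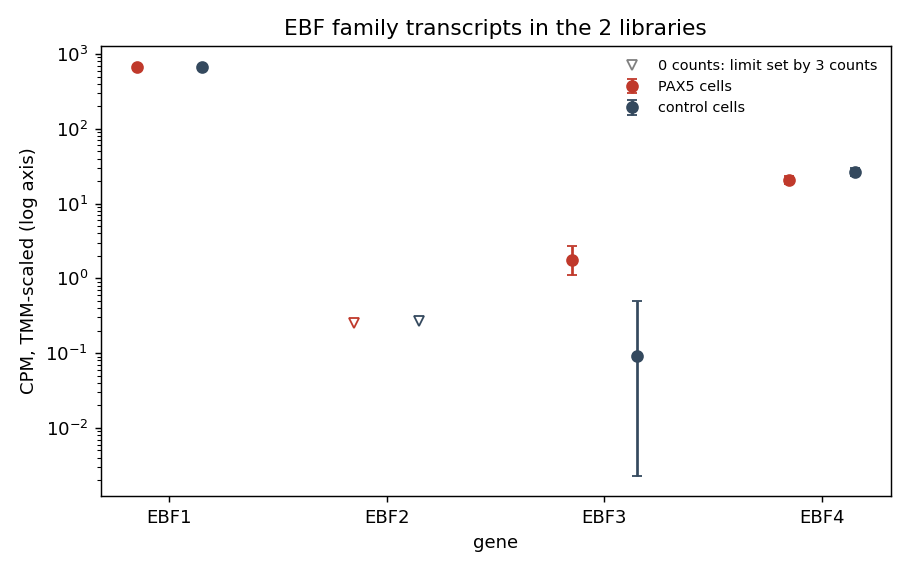
CPM of the 4 EBF genes (log axis) in PAX5 cells (red, left of each pair) and control cells (dark, right), with exact Poisson 95% intervals for counting error; open triangles mark genes at 0 counts, drawn at the limit of 3 counts. EBF1 lies at 668 CPM in PAX5 cells and 666 CPM in control cells, EBF4 lower in PAX5 cells, and EBF3 at 1.77 CPM in PAX5 cells above 0.0905 CPM in control cells.

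EBF4 lay slightly lower in PAX5 cells and was not called. EBF4 (Entrez 57593, chromosome 20) had 247 counts or 20.8 CPM (18.3 to 23.5) in PAX5 cells, against 291 counts or 26.3 CPM (23.4 to 29.5) in control cells. The CPM intervals of PAX5 and control cells overlap narrowly, while the interval of the ratio, 0.789-fold (0.663 to 0.938), excludes equal levels by counting error alone. With an assumed biological coefficient of variation of 0.1 the log2 interval of EBF4 was -0.81 to 0.13, which spans equal levels. EBF2 (Entrez 64641, chromosome 8) had 0 counts in both libraries. A count of 0 leaves room for 0.252 CPM in PAX5 cells and 0.272 CPM in control cells, so a level like that of EBF3 in control cells could have been missed.

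Of the 3 members with at least 10 counts, 1 was called higher and none lower, against 1.34% of all features called higher (182 of 13532) and 0.0517% called lower (7). With 3 members this share is a description, and it says nothing about the family as a whole. Among the 1997 features with 10 to 49 summed counts, the range in which EBF3 lies, 3.46% were called higher. There were 44 features with at least 20 counts in PAX5 cells and at most 1 in control cells, EBF3 among them, and its bound ranked 92 among the 182 called higher. For intervals that only exclude equal levels, 18.7% of features lay above and 16.8% below, the side on which EBF4 falls.

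Before the centring on gene length described below, the members differed from one another beyond counting error. The ratio of EBF3 was 19.4 times that of EBF1 (3.12 to 804) and 24.7 times that of EBF4 (3.91 to 1027), and the ratio of EBF4 was 0.786 times that of EBF1 (0.658 to 0.937), each with an exact conditional 95% interval. These comparisons do not depend on how the libraries are scaled, but a trend with gene length does not cancel in them. Centred on length, the log2 ratio was -0.10 for EBF1 and -0.31 for EBF4, against 0.01 and -0.34 without centring. Whether EBF1 and EBF4 then differ beyond counting error was not tested. The reads of the family summed to 8213 in PAX5 cells and 7646 in control cells, a ratio of 0.998-fold (0.967 to 1.03). Per length, EBF1 made up 94.4% of the family level in PAX5 cells and 93.3% in control cells, EBF4 5.32% and 6.69%, and EBF3 0.302% and 0.0153%. The family sum was therefore nearly all EBF1 in both groups.

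**Figure D2:**
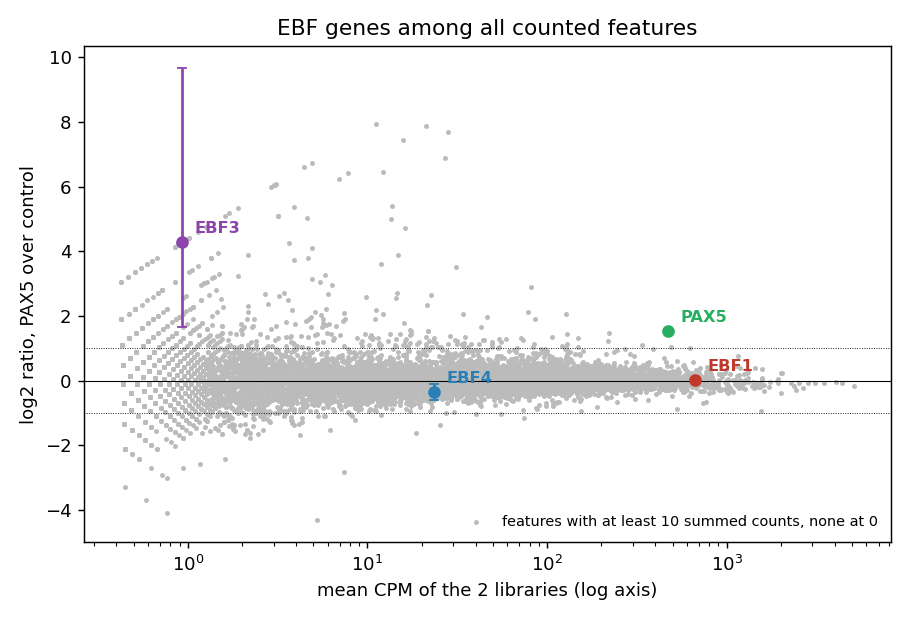
Log2 ratio of PAX5 over control cells against mean CPM (log axis) for the 13489 features with at least 10 summed counts and counts in both libraries; the 43 features at 0 in 1 library are not drawn, bars are counting intervals and dotted lines mark 2-fold. EBF1 lies at 0.01 among the most abundant features, EBF4 at -0.34 and EBF3 at 4.29 with a wide interval, while PAX5 lies at 1.54.

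Ratios varied with gene length. Longer genes had higher ratios in general: among features with at least 100 counts in 10 groups of equal size by length, the median log2 ratio was -0.20 in the shortest group and 0.19 in the longest. EBF1, with a deposited length of 5274 bases, falls in a group with a median log2 ratio of 0.10. Centred on that median, EBF1 had a log2 ratio of -0.10 (-0.14 to -0.05), so its counting interval then lay just below equal levels and it remained uncalled. Centred the same way, EBF3 (4361 bases) had 4.22 and EBF4 (2911 bases) -0.31.

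EBF1 was among the most abundant features of these cells by level per length. At 127 RPKM in PAX5 cells and 126 RPKM in control cells, it stood above 96.5% and 96.2% of the 13532 features. EBF4 was near the middle, at 7.14 RPKM in PAX5 cells and 9.05 in control cells, where the medians over all features were 9.49 and 9.35 RPKM. EBF3 had 0.405 RPKM in PAX5 cells and 0.0208 in control cells.

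Among 26 B-lineage transcription factors, EBF1 was number 8 by RPKM in PAX5 cells and number 6 in control cells. It lay below TCF3, which encodes its partner E2A, at 166 RPKM in PAX5 cells and 157 in control cells. ELF1, an Ets-family factor next to it in the order, did not differ from it beyond counting error in either library: EBF1 had 0.988 times the RPKM of ELF1 in PAX5 cells (0.955 to 1.02) and 0.995 times in control cells (0.960 to 1.03). ERG, another Ets-family factor, was on different sides of EBF1, at 132 RPKM in PAX5 cells and 111 in control cells. SOX4 lay below EBF1 in both, at 89.3 and 84.4 RPKM. The order of EBF1 and PAX5 was opposite in the libraries: EBF1 had 0.661 times the RPKM of PAX5 in PAX5 cells (0.641 to 0.682) and 1.91 times in control cells (1.83 to 2.001). The PAX5 count does not separate reads of the induced construct from those of the cells' own gene. All of them were divided by the same deposited length. Of the 25 factors with at least 10 counts, 3 were called higher and none lower. They were PAX5, the Ets-family factor SPIB at 3.24-fold and the B-cell repressor BACH2 at 2.13-fold. The bound of BACH2 lay just beyond 2-fold, at a log2 ratio of 1.02. Centred on length, the log2 ratio of BACH2 was 0.90, which is below 2-fold, so its call is lost. PAX5 is the induced gene itself, and over all features 1.34% were called higher and 0.0517% lower. The median log2 ratio of the 25 was 0.14, beside -0.01 over all features, and was 0.037 when centred on length. The counts of MEF2C, LEF1 and MYB were the highest of the list, with log2 ratios of -0.23 for MEF2C, 0.19 for LEF1 and -0.03 for MYB.

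**Figure D3:**
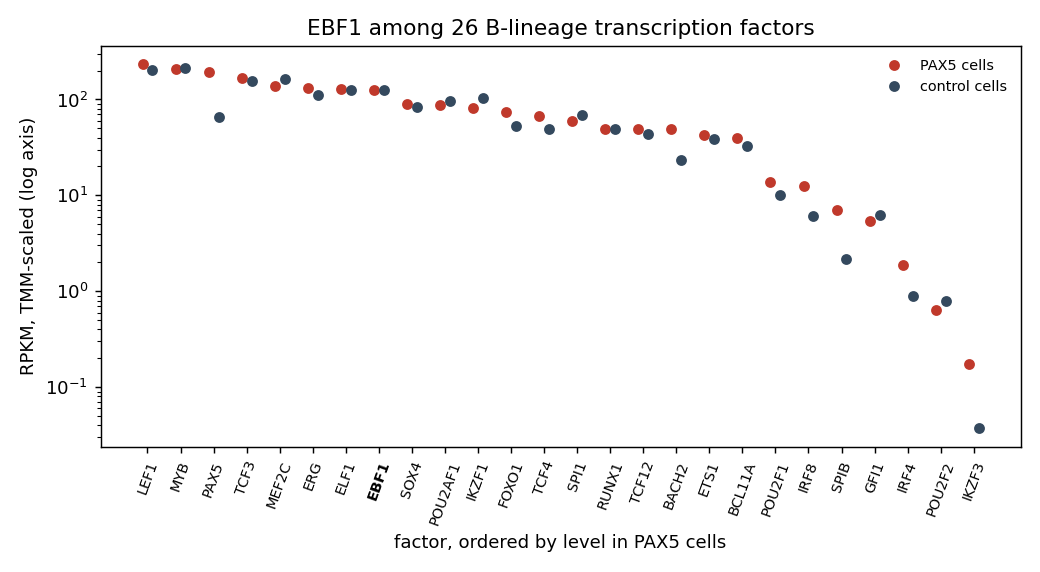
RPKM (log axis) of 26 B-lineage transcription factors in PAX5 cells (red) and control cells (dark), ordered by level in PAX5 cells. EBF1 (bold) is at 127 RPKM in PAX5 cells and 126 in control cells, beside ELF1 at 128 and 127, while PAX5 is at 192 in PAX5 cells and 66.0 in control cells.

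By closeness of log2 RPKM over the 2 libraries (Euclidean distance), the features most like EBF1 were EID1 at a distance of 0.0087, GARS1 at 0.017 and ELF1 at 0.018. The features most like EBF4 were LRRC45 at 0.0033, NCDN at 0.0068 and MTSS2 at 0.016. With 2 libraries this likeness means similar levels per length in both and nothing more.

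None of the regulators that act upstream of EBF1 was called, against 1.34% of all features called higher and 0.0517% lower. Of 13 measured genes, 5 had intervals above equal levels and 5 below, against 18.7% and 16.8% of all features. Intervals narrow as counts rise, and these genes had 768 to 17306 summed counts. The shares over all features, counted from 10 summed counts, are therefore not matched for depth, here or for the lists below. The median log2 ratio was 0.03, of opposite sign to the mean of -0.01 and the length-centred median of -0.04. TCF3 had a log2 ratio of 0.08 (0.03 to 0.12) and RUNX1, a core factor of blood lineages, of 0.01 (-0.05 to 0.07). FOXO1, a factor that acts on Ebf1 in mouse, had 5043 counts in PAX5 cells and 3347 in control cells, a log2 ratio of 0.49 (0.42 to 0.55). JAK1, a kinase of cytokine receptors, had 1882 counts in PAX5 cells and 1393 in control cells, a log2 ratio of 0.33 (0.23 to 0.43). In the other direction, the lymphoid factor IKZF1 (Ikaros) had 5995 counts in PAX5 cells and 7075 in control cells, with a log2 ratio of -0.34 (-0.39 to -0.29).

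Genes that EBF1 is known to activate in early B cells, mostly from mouse, went both ways. Of 14 members with at least 10 counts, none was called, against 1.34% of all features called higher and 0.0517% lower. Intervals lay above equal levels for 4 members and below for 4, against 18.7% and 16.8% of all features, and spanned them for 6, with a median log2 ratio of -0.05, of opposite sign to the mean of 0.11 and the length-centred median of 0.13. CD79B, a signalling chain of the B-cell receptor, had a log2 ratio of 0.42 (0.36 to 0.49), and the Wnt pathway factor LEF1, the most counted member, one of 0.19 (0.15 to 0.23). FOXO1 is also in this list. CD79A, the partner chain of CD79B, had 5256 counts in PAX5 cells and 4950 in control cells, a log2 ratio of -0.02 (-0.08 to 0.04). The surrogate light chain gene IGLL1 had 5465 counts in PAX5 cells and 6063 in control cells, a log2 ratio of -0.26 (-0.31 to -0.20). CR2, the complement receptor of later B cells, had 0 counts in both. The whole EBF palindrome occurred in 0 of the 10 promoters of this list that the RefSeq table holds, against 1.21% of all promoters. Its centre CCCNNGGG occurred in 3 of the 10, CAGCTG in 4 and CAGGTG in 6, against 19.1%, 17.9% and 20.6% of all promoters.

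Among genes of other lineages that EBF1 is known to repress in mouse, 4 of 7 had at least 10 counts. Of these, 1 was called higher and none lower, against 1.34% called higher and 0.0517% lower over all features. Intervals lay above equal levels for 2, below for 1 and spanned them for 1, against 18.7% above and 16.8% below over all features. The median log2 ratio of the 4 was 0.39, against -0.01 over all features, and it describes few genes. The called gene was ID2, an inhibitor of E proteins, with 302 counts in PAX5 cells and 43 in control cells, 6.53-fold (4.73 to 9.21). Its relative ID3 had a log2 ratio of 0.22 (0.14 to 0.30), and the myeloid and B-cell factor SPI1 (PU.1) of -0.23 (-0.35 to -0.10). CEBPA, a myeloid factor, and ZBTB16 had 0 counts in both libraries.

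Partners and inhibitors of EBF proteins had 8 of 9 members with at least 10 counts and none called. Intervals lay above equal levels for 5 and below for 2. The median log2 ratio was 0.21, or 0.080 when centred on length. Over all features, 1.34% were called higher and 0.0517% lower. There, 18.7% of intervals lay above and 16.8% below, with the median without centring at -0.01. ZNF423, a zinc finger protein that binds EBF proteins and blocks them, had 440 counts in PAX5 cells and 233 in control cells, 1.75-fold (1.49 to 2.07). ZNF521, its relative with the same role, had 0 counts in both libraries. The histone acetyltransferase gene EP300 had a log2 ratio of 0.39 (0.30 to 0.48) and the chromatin remodeller gene SMARCA4 (BRG1) of 0.27 (0.22 to 0.33). CHD4, another remodeller, had one of 0.14 (0.08 to 0.19). MEF2C, a factor that acts with EBF1 in mouse B cells, was the most counted member and had one of -0.23 (-0.27 to -0.20).

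**Figure D4:**
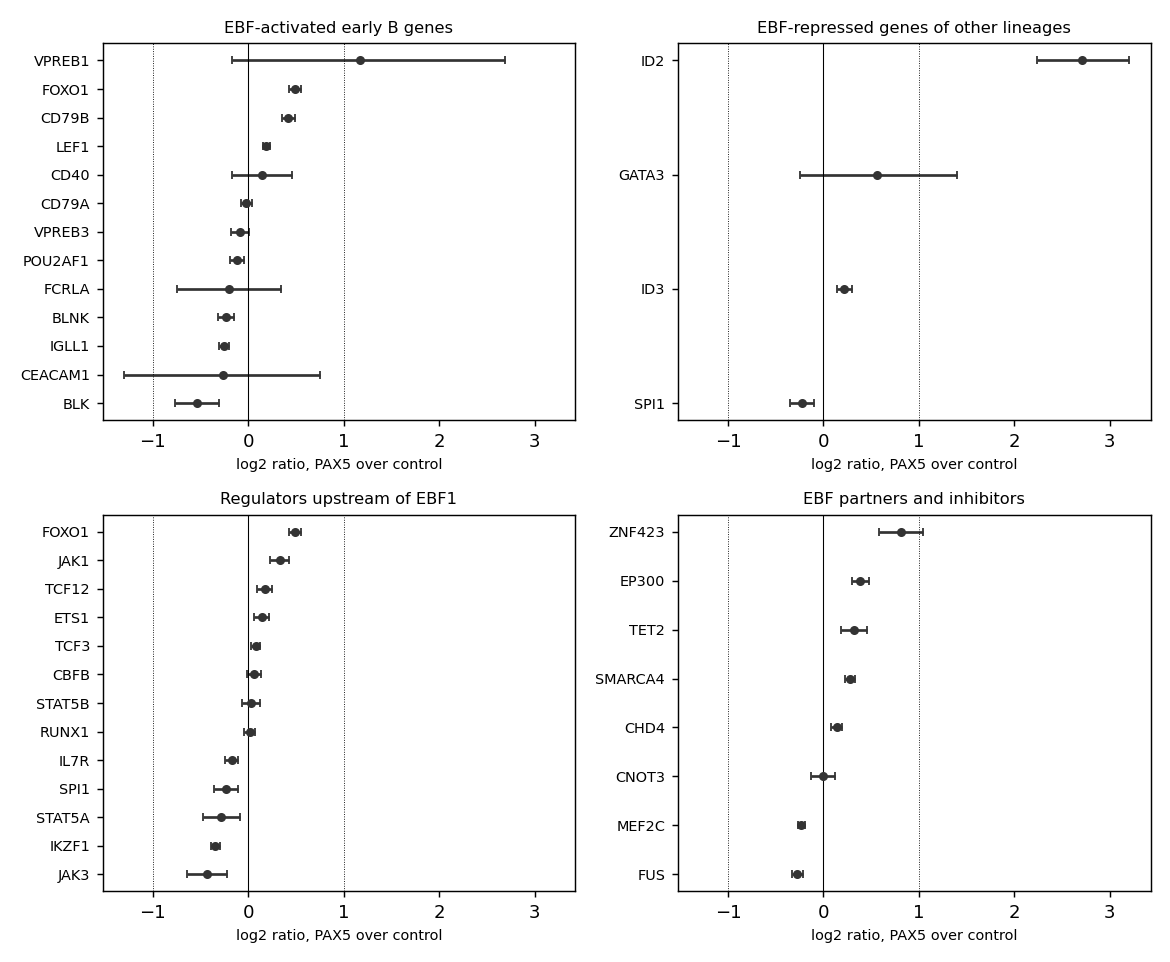
Log2 ratio of PAX5 over control cells for the list members with at least 10 summed counts (1 activated gene is not drawn), with counting intervals; dotted lines mark 2-fold. ID2 at 2.71 is the only member drawn whose whole interval lies beyond 2-fold, while ZNF423 (0.81) lies below it.

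The genes next to the EBF genes were not called either, against 1.34% of all features called higher and 0.0517% lower. MGMT, a DNA repair gene on one side of EBF3, had 691 counts in PAX5 cells and 618 in control cells, a log2 ratio of 0.06 (-0.10 to 0.21), and C10orf143 on the other side had 9 counts in PAX5 cells and 5 in control cells. Beside EBF1, CLINT1 had a log2 ratio of 0.06 and RNF145 of -0.14. Beside EBF4, IDH3B had one of -0.06 and CPXM1 of -0.10, and beside EBF2, CDCA2 had one of 0.04 and PPP2R2A of -0.10.

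Markers of other cell types, among them some in which EBF genes are expressed, were examined beside EBF3. All 7 adipocyte markers had 0 counts in both libraries, and 4 of 6 neuronal and 2 of 4 olfactory markers did. The neuronal list summed to 25.7 CPM in PAX5 cells and 19.5 CPM in control cells, nearly all from SYT1, and the olfactory list to 44.1 and 44.3 CPM, nearly all from ADCY3. Of 9 stromal markers, CXCL12, COL3A1 and LUM had 0 counts in both libraries. The stromal list summed to 52.5 CPM in PAX5 cells and 62.0 in control cells, mostly from PDGFRB, and PDGFRA had 22 counts in PAX5 cells and 8 in control cells. Of 7 myeloid markers, 1 had 0 counts in both libraries (ELANE), and the list summed to 28.0 CPM in PAX5 cells and 40.5 in control cells. The part of other cell types in the EBF3 count was not tested.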

How the data were processed

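Per the labels' protocols, total RNA came from a QIAGEN RNeasy kit and the libraries from a NEBNext Ultra kit. The deposited values are raw counts of reads per gene, made by the authors with featureCounts on hg19 (GRCh37), as the submitters' processing notes say, and each gene has a deposited length in bases. No source used here gives the version, aligner, strand setting or handling of multi-mapping reads. The series table and the single-library files held the same 51404 values.

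Entrez numbers matched a RefSeq symbol (GRCh38.p14) for 23696 of 25702 features. TMM scaling (edgeR 4.0.16, R 4.3.3) over features with at least 10 summed counts gave factors of 0.995 for PAX5 and 1.005 for control. With 1 library per group no spread can be estimated, so neither edgeR nor DESeq2 tested a gene and no p-value is given. Intervals are Clopper-Pearson 95% intervals conditional on the summed count (scipy 1.17.1). They and the floor of 3 counts for genes at 0 cover counting error only: PCR copies are not independent molecules, and cultures may vary. The calculation was tested on simulated Poisson counts, which hold counting error alone. That checks the calculation and cannot show how the intervals hold when cultures vary. Alternatives changed the scaling, minimum, fold, length correction and interval.

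Named genes are the members, their nearest counted neighbours, the features nearest in level, and list members that were called, were at 0 in both libraries, had the most counts or had bounds farthest from 0; markers and factors next to EBF1 in level were named after their values were seen. A list member that the rule names is not reported here, though list counts and medians include it. Members, lists and tests were chosen with earlier results of these data known, and the motifs other than the whole EBF palindrome after the data were seen.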

Additional observations from a re-analysis of the deposited data

How the results depend on the processing

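EBF4 kept its direction and stayed uncalled under all 9 alternatives run (log2 -0.36 to -0.31), and EBF3 kept its direction under all 11 (4.22 to 4.30). Only the other scalings and the centring on length could move these ratios. The widened intervals, the single-library files and a changed fold or minimum leave them unchanged by construction. EBF3 lost its call with the bound at 4-fold and with a minimum of 50 summed counts, where its log2 ratio remains 4.29, because the bound of 1.65 and the 22 counts fall under those limits by construction. Intervals widened by an assumed spread between cultures (coefficient of variation 0.1 or 0.2) left EBF3 called, while at 0.2 the log2 interval spanned equal levels for EBF4 (-1.18 to 0.50) and reached -0.80 to 0.81 for EBF1. EBF1 ranged from -0.10 to 0.02. Centring on length gave -0.10 for EBF1, -0.10 for the family sum, 4 features called lower, and list medians of 0.13 (EBF-activated genes, of opposite sign to the main value of -0.05), 0.080 (partners) and 0.037 (B-lineage factors). The mean in place of the median gave 0.11 for EBF-activated genes, again of opposite sign, 0.82 for EBF-repressed genes and 0.30 for B-lineage factors. Without division by length, EBF1 made up 96.7% of family reads in PAX5 cells and 96.2% in control cells. Features called higher and lower numbered 113 and 4 with a minimum of 50 counts, 547 and 234 by a point ratio, 355 and 47 with the bound at 1.5-fold, and 70 and 2 at 4-fold. Scaling by total counts, DESeq2 1.42.0 size factors, upper-quartile factors or TMM on all features (the last chosen after seeing the data) changed no call of a member. EBF2 had 0 counts and gives no ratio under any alternative. Counts of 0 for EBF2 and 22 for EBF3 limit what can be said of both. No paired analysis was possible because each group has 1 library.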
